A study of Mus musculus with 16 samples.

Results

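Pairs of mouse genes that are neighbours on opposite DNA strands, 3 in all, were described across 16 hippocampus RNA-seq libraries, chosen by symbol as Il4 with Kif3a, Pdcd2 with Tbp and Hipk4 with Pld3. These 6 genes, of 55359 in the deposited table, were picked because 1 gene of each pair had an extreme difference between chronic-stressed and non-stressed mice. Their stress differences are therefore given as a description, with no test. The mice were of strain C57BL/6JNarl with no transgene named, and the 4 groups of 4 libraries were chronic-stressed males, non-stressed males, chronic-stressed females and non-stressed females. Each library was a pool, of 1 animal in stressed male library 3, of 2 animals in the other stressed male libraries and of 3 animals in every other library. Whether pools shared animals is not stated, so p-values measure the spread between these libraries. The sample labels give the tissue as brain and the study's design text gives hippocampus. Age and the kind of stress are not given in the sources used here.

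Il4 encodes interleukin 4, a secreted cytokine of type 2 immunity that T helper cells, mast cells, basophils and eosinophils make and that signals through its receptor to JAK kinases and the factor STAT6. Kif3a encodes a motor subunit of kinesin-2, which carries cargo along microtubules, builds cilia and runs in axons. Pdcd2 encodes a protein that accompanies a newly made small-subunit ribosomal protein into the ribosome. Tbp encodes the TATA-binding protein, the core of the general transcription factor TFIID. Hipk4 encodes a homeodomain-interacting protein kinase, best known in mouse for its role in maturing sperm. Pld3 encodes an endolysosomal exonuclease of the phospholipase D family that neurons express strongly.

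On build GRCm39, as the deposited table gives it, Il4 lies on the minus strand at chr11:53493809-53509496 and Kif3a on the plus strand at chr11:53458206-53492794. The 2 genes converge, so that their 3' ends face each other across 1014 bases. Hipk4, on the plus strand at chr7:27222692-27230600, and Pld3, on the minus strand at chr7:27231425-27252643, converge in the same way across 824 bases. Pdcd2, on the minus strand at chr17:15739470-15747563, lies wholly inside the span of Tbp, on the plus strand at chr17:15720150-15748641. In the GENCODE M21 annotation, whose exonic lengths of all 6 genes equal those in the deposited table, all 2582 exonic bases of Pdcd2 lie over exons of Tbp. They make up 19.0% of the 13576 exonic bases of Tbp. The other pairs share no exonic base.

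**Figure D1:**
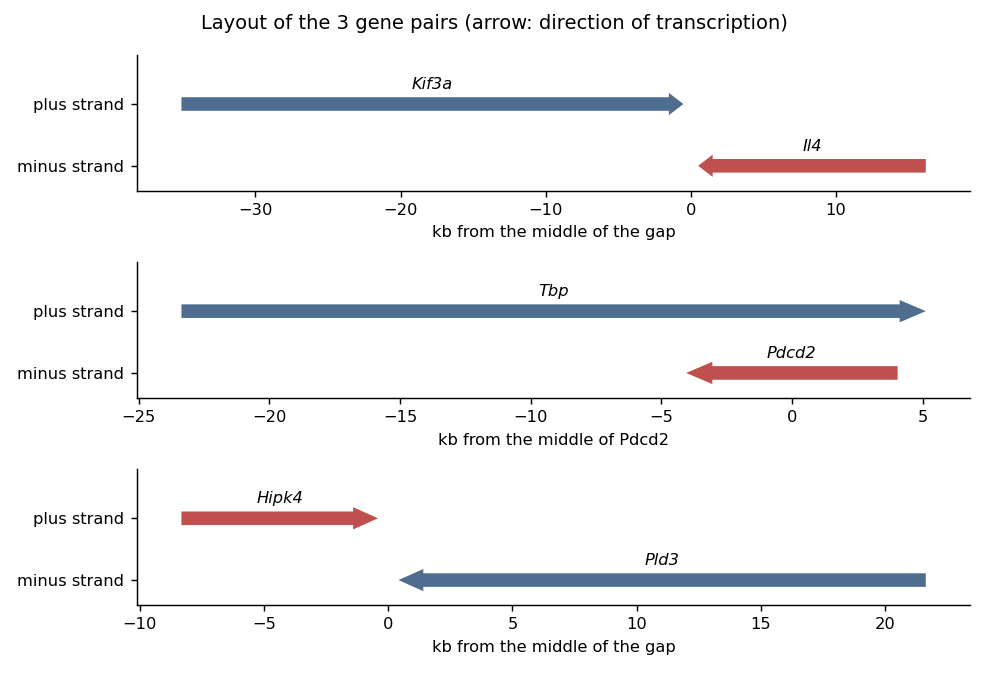
Spans of the 6 genes in kilobases from the middle of the gap between them (upper and lower panels) or from the middle of Pdcd2 (middle panel), to scale, with each arrow pointing in the direction of transcription. The Il4 and Kif3a pair and the Hipk4 and Pld3 pair converge across gaps of 1014 and 824 bases, and Pdcd2 lies within the span of Tbp.

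The sequences before the gene starts show how unlike the promoters within a pair are, and they can be read for the letters after which the product of Tbp is named. RefSeq (GRCm38.p6) gave the 250 bases before the start of Il4, Kif3a, Tbp, Hipk4 and Pld3. They were searched on both strands for TATANA, which 22.6% of all 32851 promoter windows of this length hold. Capitals mark the matched stretch, in which matches overlap.
Il4, chr11:53618666-53618915, minus strand: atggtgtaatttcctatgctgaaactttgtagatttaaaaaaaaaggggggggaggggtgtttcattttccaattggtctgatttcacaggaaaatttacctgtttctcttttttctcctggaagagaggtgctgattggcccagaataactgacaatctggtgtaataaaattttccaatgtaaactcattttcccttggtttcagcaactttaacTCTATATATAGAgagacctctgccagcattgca
Kif3a, chr11:53567119-53567368, plus strand: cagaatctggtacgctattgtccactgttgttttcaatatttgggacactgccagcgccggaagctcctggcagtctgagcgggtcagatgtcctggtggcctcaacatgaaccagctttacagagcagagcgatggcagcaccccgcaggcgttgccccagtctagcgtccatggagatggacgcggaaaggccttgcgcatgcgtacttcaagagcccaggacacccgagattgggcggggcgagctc
Hipk4, chr7:27523011-27523260, plus strand: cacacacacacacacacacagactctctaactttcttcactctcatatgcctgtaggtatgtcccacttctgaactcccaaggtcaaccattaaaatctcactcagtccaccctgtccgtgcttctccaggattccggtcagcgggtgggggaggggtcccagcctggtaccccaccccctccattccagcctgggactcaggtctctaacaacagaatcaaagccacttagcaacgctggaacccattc
Pld3, chr7:27553219-27553468, minus strand: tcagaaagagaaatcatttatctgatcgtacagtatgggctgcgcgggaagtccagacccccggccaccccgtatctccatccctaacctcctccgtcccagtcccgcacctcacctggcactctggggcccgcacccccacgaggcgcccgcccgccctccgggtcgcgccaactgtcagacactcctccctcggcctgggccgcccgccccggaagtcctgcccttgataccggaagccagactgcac
The window of Il4 held 6 overlapping matches, the nearest beginning 27 bases before the start, and no CG dinucleotide. A second listed Il4 start, further into the gene, had no match in its window and 1 CG dinucleotide. No match was found in the windows of Kif3a, Tbp, Hipk4 and Pld3, which held 15, 11, 4 and 20 CG dinucleotides, against a median of 6 over all windows. So in both convergent pairs the gene with fewer CG dinucleotides than its partner is the one with the extreme stress difference, which is a description of 2 pairs. Among all windows, 7.87% held no more CG dinucleotides than the Il4 window shown. For Hipk4 this was 44.4%, so its window was near the median. A link of the promoters to the stress differences was not tested.

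The depth of the 16 libraries was 15.2 to 32.5 M counts (M, 1e+06). Within groups, libraries differed by more than counting error, with a lowest chi-square per degree of freedom of 3.05 between replicates. Non-stressed female library 4 stood furthest from the rest of its group, with a median absolute log2 difference of 0.37, followed by library 3 at 0.29, against 0.07 to 0.24 for the other 14 libraries. The genes Xist and Ddx3y followed the labelled sex in all 16 libraries. All 10 hippocampal neuron markers examined were detected above the filter on low values. Their summed level was 1177 to 1317 CPM (counts per 1e+06 counts of the library) in the 8 stressed libraries and 936 to 1136 CPM in the 8 non-stressed libraries. The markers went both ways, with 7 of the 10 higher and 3 lower in stressed mice by their means in each sex. Of all tested genes, 39.7% in males and 49.3% in females differed between conditions (edgeR, adjusted p under 0.05). Nothing particular to neurons can therefore be read from these shifts. Zbtb20 had the widest gap, at 348 CPM in stressed and 185 CPM in non-stressed males and 343 CPM in stressed and 191 CPM in non-stressed females, while C1ql2, Neurod6 and Spink8 were lower. The strand setting of the read counting is not given in the sources used here, nor whether stressed and non-stressed libraries were prepared and counted with the same setting. A difference of that kind would fall together with the conditions and cannot be told apart from them. Reads over the exonic bases that Pdcd2 and Tbp share cannot be assigned to 1 of these genes without strand.

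Il4 had counted reads in every non-stressed library and almost none in the stressed libraries, while its neighbour Kif3a stood close to equal. Il4 had no count in any of the 4 stressed male libraries, against 329, 260, 357 and 308 counts in the 4 non-stressed male libraries. In females it had 0, 1, 0 and 0 counts in the stressed libraries, against 294, 322, 366 and 357 in the non-stressed libraries. The groups did not overlap in either sex, but Il4 was chosen for this difference. The non-stressed level was 18.2 ± 1.38 CPM in males and 18.5 ± 0.957 CPM in females (SD, n = 4 each). With a floor of 3 counts over the group, Il4 was at least 565-fold lower in stressed than in non-stressed males. In females, where the stressed group held 1 count, the ratio of non-stressed over stressed was 1731, with an exact 95% interval of 310 to 68419 that covers counting error only. Both folds are of counted reads, and unlike library preparation or counting between the conditions cannot be told apart from them. In bulk tissue such as this, fewer cells of a type and less RNA per cell cannot be told apart either.

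Kif3a had 136, 134, 138 and 122 CPM in stressed males, against 124, 126, 122 and 121 CPM in the non-stressed males. Its stressed female libraries had 138, 136, 137 and 139.96 CPM, against 131, 116, 131 and 123 CPM in the non-stressed females. The stressed libraries were above the non-stressed libraries in females, while in males stressed library 4 fell among the non-stressed ones. On the log2 scale the difference, stressed minus non-stressed, was 0.12 ± 0.06 in males and 0.14 ± 0.06 in females (SE, edgeR). Per exonic length, Il4 averaged 14.9 ± 1.12 FPKM (fragments per kilobase of exon and 1e+06 fragments) and Kif3a 34.4 ± 0.603 FPKM in non-stressed males. Non-stressed females had 15.1 ± 0.779 FPKM of Il4 and 34.9 ± 1.97 FPKM of Kif3a (SD, n = 4 each).

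Pdcd2 had the opposite pattern, with reads in every stressed library and none in any non-stressed one. It had 156, 141, 245 and 154 counts in the 4 stressed male libraries, against 0 in all 4 non-stressed male libraries. Stressed female libraries had 158, 206, 246 and 156 counts, against 0 in all 4 non-stressed female libraries. These counts came to 7.52 ± 0.648 CPM for the stressed males and to 8.16 ± 0.568 CPM for the stressed females (SD, n = 4 each). Against the same floor of 3 counts, Pdcd2 was at least 172-fold higher in stressed males and at least 198-fold higher in stressed females. As for Il4, these folds are of counted reads, and unlike library preparation or counting between the conditions cannot be told apart from them.

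Tbp, whose exons cover all of Pdcd2, stood close to equal between conditions. It had 36.2, 38.2, 32.5 and 33.5 CPM in stressed males, against 34.1, 33.0, 34.9 and 32.2 CPM in the non-stressed males. Stressed females had 35.9, 35.5, 33.5 and 34.1 CPM, against 32.3, 32.7, 35.9 and 30.9 CPM in the non-stressed females. The groups overlapped in both sexes, and the log2 difference was 0.07 ± 0.07 in each (SE, edgeR). In mean CPM Tbp was above Pdcd2, at 35.1 against 7.52 in stressed males, over 13576 exonic bases against 2582. Only per exonic length as annotated were the genes close in stressed mice, with Pdcd2 at 2.92 ± 0.250 FPKM and Tbp at 2.59 ± 0.187 FPKM in males. In stressed females Pdcd2 was at 3.16 ± 0.221 FPKM and Tbp at 2.56 ± 0.0862 FPKM (SD, n = 4 each). Pdcd2 was thus listed at 0 in tissue where Tbp stood at 2.47 ± 0.0879 FPKM in non-stressed males and 2.43 ± 0.155 FPKM in non-stressed females (SD, n = 4 each).

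Counted reads of Hipk4 were lower in the stressed libraries by over 100-fold, and unlike Il4 it kept a few counts in every stressed library. Stressed male libraries had 2, 4, 5 and 7 counts, against 829, 815, 1166 and 1216 counts in non-stressed males. In females, stressed libraries had 3, 5, 4 and 2 counts, against 768, 1148, 1249 and 737 counts in non-stressed libraries. The groups did not overlap, but Hipk4 too was chosen for this difference. In males the level was 0.195 ± 0.0873 CPM in stressed and 58.2 ± 7.77 CPM in non-stressed mice, and in females 0.148 ± 0.0406 CPM in stressed and 53.4 ± 10.5 CPM in non-stressed mice (SD, n = 4 each). On the log2 scale the difference was -8.17 ± 0.22 in males and -8.43 ± 0.23 in females (SE, edgeR). The ratio of summed counts, non-stressed over stressed, was 302 in males (exact 95% interval 191 to 510) and 360 in females (214 to 660). With a pseudocount of 1 on the FPKM scale the log2 difference was smaller in size, at -4.00 in males and -3.89 in females.

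Pld3 was the most abundant of the 6 genes per exonic length. It had 485, 487, 509 and 498 CPM in stressed males, against 500.2, 549.6, 526 and 520.3 CPM in the non-stressed males. Its stressed female libraries had 482, 509, 469 and 502 CPM, against 489.8, 511, 492 and 466 CPM in the non-stressed females. The groups overlapped in both sexes, with log2 differences of -0.07 ± 0.06 in males and -0.00 ± 0.06 in females (SE, edgeR). In non-stressed mice Hipk4 was at 15.96 ± 2.13 FPKM in males and 14.6 ± 2.90 FPKM in females, against a Pld3 level of 179 ± 6.94 FPKM in males and 167 ± 6.34 FPKM in females (SD, n = 4 each).

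**Figure D2:**
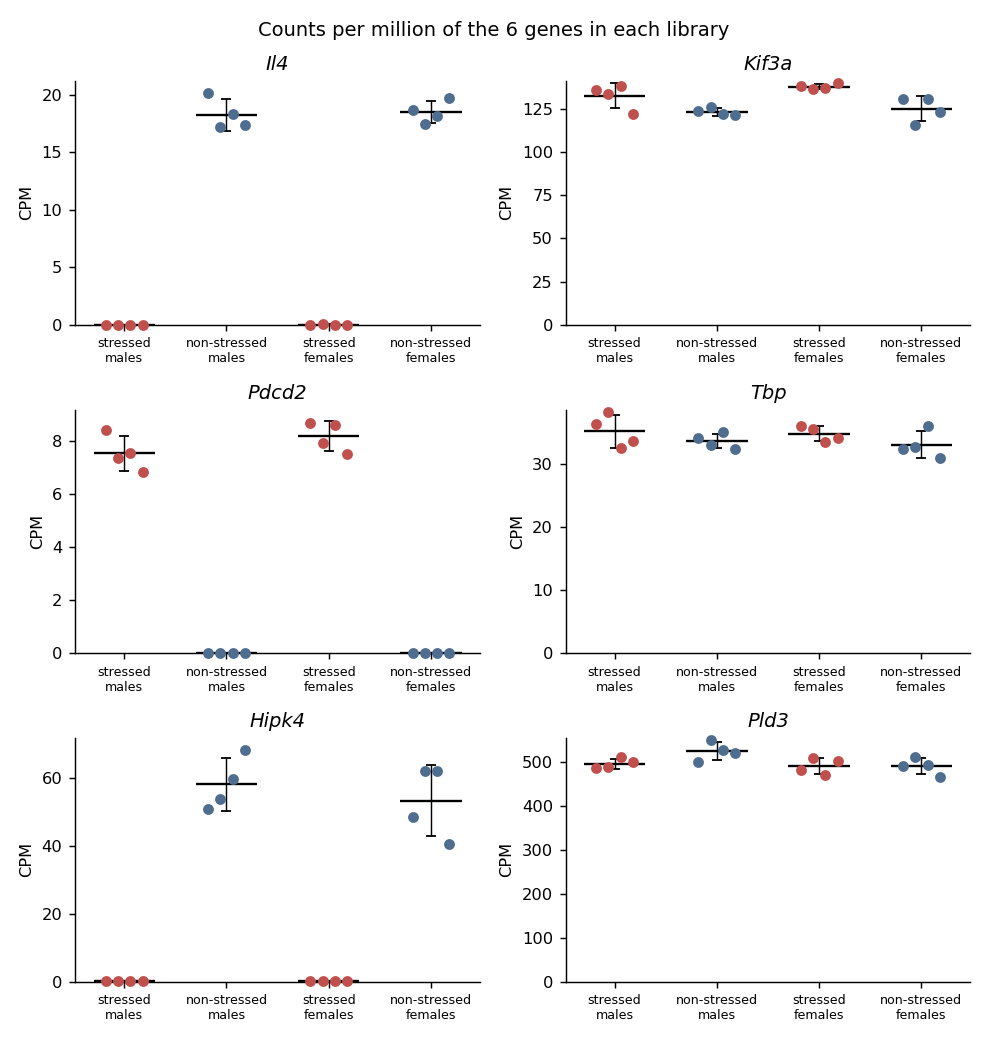
CPM of each gene (vertical axes, starting at 0) in the 4 libraries of each group, with the mean as a line and the SD as a bar. Il4 and Hipk4 are at or near 0 in all 8 stressed libraries and Pdcd2 is at 0 in all 8 non-stressed libraries, while Kif3a, Tbp and Pld3 have similar levels in the 4 groups.

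Expressing each extreme gene as a share of the counts of its pair removes library size. Il4 made up 0% of the pair in stressed males and 12.9 ± 0.876% in non-stressed males, and 0.00703 ± 0.0141% in stressed females and 12.9 ± 0.703% in non-stressed females. The Pdcd2 share was 17.7 ± 1.36% in stressed and 0% in non-stressed males, and 19.0 ± 1.14% in stressed and 0% in non-stressed females. Hipk4 held 0.0393 ± 0.0175% in stressed and 9.99 ± 1.22% in non-stressed males, and 0.0302 ± 0.00803% in stressed and 9.77 ± 1.5% in non-stressed females (SD, n = 4 in each group). In the condition where each gene was abundant, the SD of its share was small beside the mean, while the shares near 0 rest on few counts. The summed level of Pdcd2 and Tbp was 42.6 ± 2.84 CPM in stressed and 33.6 ± 1.18 CPM in non-stressed males, and 42.9 ± 1.36 CPM in stressed and 32.9 ± 2.12 CPM in non-stressed females (SD, n = 4 each).

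**Figure D3:**
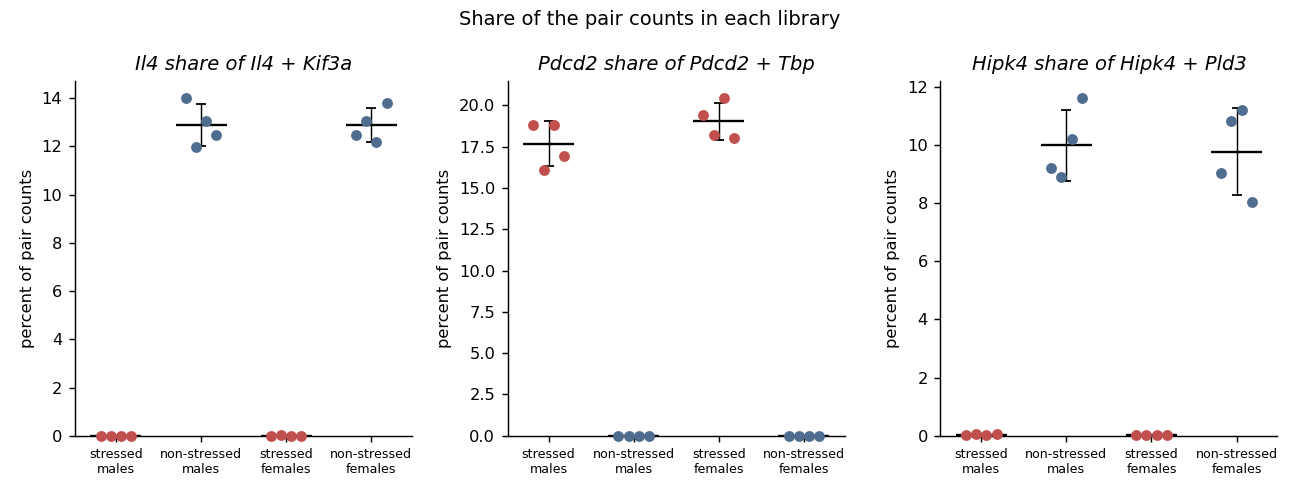
Share of the extreme gene in the summed counts of its pair, in percent (vertical axes, starting at 0), for the 4 libraries of each group, with the mean as a line and the SD as a bar. Within a condition the shares of females and males overlap in every pair. Between conditions no share overlaps, but the extreme genes were chosen for that difference.

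Whether the pairs differed between the sexes was not used to choose them, so this was tested. Among non-stressed mice the female minus male log2 difference was 0.03 ± 0.12 for Il4 (adjusted p = 0.946, edgeR quasi-likelihood test with Benjamini-Hochberg adjustment), and -0.12 ± 0.13 for Hipk4 (adjusted p = 0.730). Largest relative to its error was the difference of Pld3, at -0.09 ± 0.06 (adjusted p = 0.651, edgeR). Kif3a and Tbp had adjusted p-values of 0.877 and 0.931, and Pdcd2 has no fold since both groups were at 0. No member passed, where 0.0455% of the tested genes did. Among stressed mice, Pdcd2 differed by 0.11 ± 0.13 and Hipk4 by -0.38 ± 0.50 on the log2 scale. All adjusted p-values there were 1 in edgeR for Kif3a, Pdcd2, Tbp, Hipk4 and Pld3, where 0.0398% of tested genes passed, and Il4 has no fold since both groups were under the floor.

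The interaction, the female minus the male stress effect, was 0.02 ± 0.09 for Kif3a, -0.00 ± 0.09 for Tbp, -0.26 ± 0.50 for Hipk4 and 0.07 ± 0.08 for Pld3 (SE, edgeR). None of the 4 passed. Over all tested genes 0% did, that is 0 genes in edgeR, with 374 at an unadjusted p under 0.05. DESeq2 called 0 genes and limma 0, or 1 with a pseudocount of 0.1 or on TPM. The shares of Il4, Pdcd2 and Hipk4 in their pairs gave 4 further comparisons of females with males, by 2-sided exact permutation tests of 4 libraries against 4, which cannot go below p = 0.0286. In non-stressed mice the difference, female minus male, was 0.00231 percentage points for Il4 (exact p = 0.971, adjusted 0.971) and -0.217 for Hipk4 (exact p = 0.83, adjusted 0.971). In stressed mice it was 1.36 percentage points for Pdcd2 (exact p = 0.2, adjusted 0.8) and -0.00913 for Hipk4 (exact p = 0.4, adjusted 0.8).

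Whether the genes of a pair varied together from library to library was examined over the 8 libraries of the condition in which both had reads. For Hipk4 and Pld3 in non-stressed mice Pearson's r was 0.54 (exact permutation p = 0.165) and Spearman's rho 0.55 (exact permutation p = 0.171), and r was 0.61 without the 2 libraries farthest from the median of Pld3. Il4 and Kif3a had an r of 0.17 (exact permutation p = 0.678) and a rho of 0.19 (exact permutation p = 0.665), with r at -0.0076 without the 2 farthest libraries. Pdcd2 and Tbp in stressed mice had an r of 0.15 (exact permutation p = 0.731) and a rho of 0.05 (exact permutation p = 0.935), with r at 0.52 without the 2 farthest. Adjusted over these 3 relations, p for r was 0.495, 0.731 and 0.731. None of the 3 passed the permutation test.

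How large these differences are among neighbouring genes was described over the 5353 pairs of tested genes on opposite strands whose spans overlap or lie within 5 kb. The change between conditions of the log2 ratio within a pair, on the group mean of log2(CPM + 0.1), had a median size of 0.52 in males and 0.58 in females over all pairs. It was 7.62 in males and 7.56 in females for Il4 and Kif3a, place 10 in males and 12 in females. Hipk4 and Pld3 had 7.58 in males and 7.75 in females, place 11 in each sex. For Pdcd2 and Tbp it was 6.19 in males and 6.29 in females, place 39 in males and 36 in females of all pairs, and place 24 in males and 23 in females of the 2571 pairs with overlapping spans. In all 3 pairs the gene with fewer counts carried nearly all of this change, and 9 pairs or more changed further in each sex. The layouts differed too. A change above 2 on the log2 scale was found in males in 260 of 2328 convergent pairs, in 142 of 2199 divergent pairs and in 244 of 826 pairs with 1 gene inside the other. In females it was found in 269, 146 and 236 of these pairs.

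**Figure D4:**
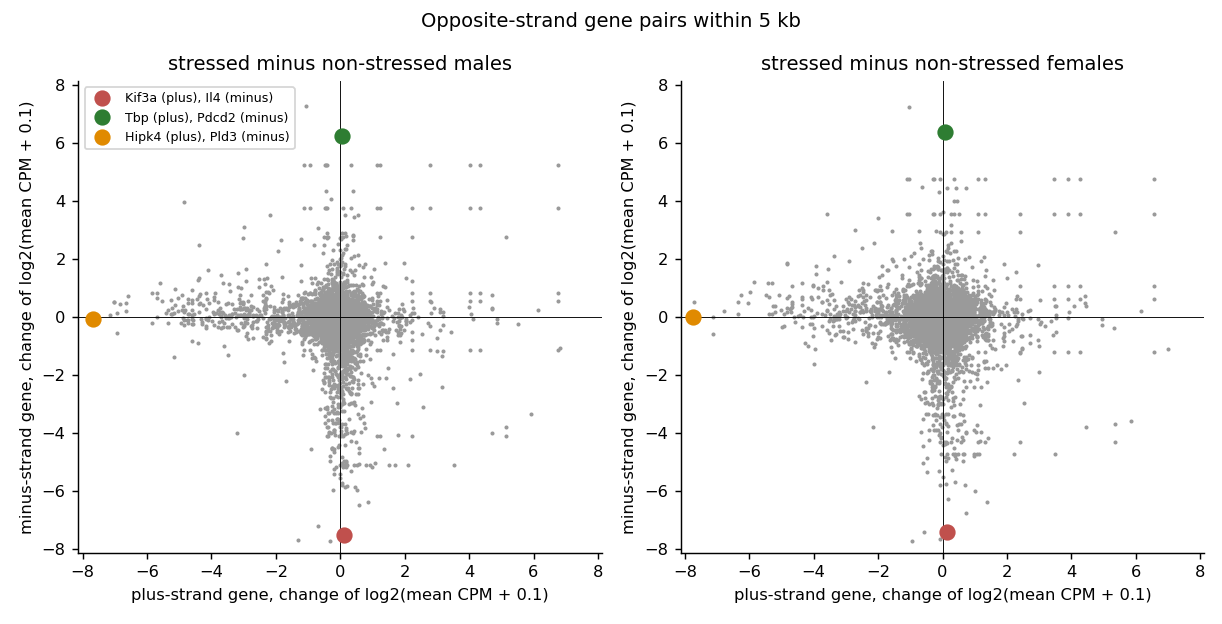
Change of the group mean of log2(CPM + 0.1) between stressed and non-stressed males (left) and females (right) for 5353 opposite-strand pairs within 5 kb. The plus-strand gene is on the horizontal axis and the minus-strand gene on the vertical axis, 1 grey point per pair, with the 3 pairs in colour. The axis labels write this measure as log2(mean CPM + 0.1). The 3 pairs lie on the arms of the cross, where 1 gene of a pair changes and the other stays near 0.

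Pdcd2 was then set beside other genes whose exonic bases all lie over exons of the opposite strand in M21, a grouping chosen after its values were seen. With a minimum of 100 counts over the 16 libraries there were 21 such genes. Of these, 0 had no count in the 8 stressed libraries and 21 had no count in the 8 non-stressed libraries. Since a gene at 0 in 1 condition can reach that minimum only through the other, the minimum was lowered to 1 count. This loosens the limit and does not remove it, since a gene at 0 in 1 condition still enters through the other. Of 185 fully overlapped genes, 1 then had no count in the 8 stressed libraries and 183 (98.9%) had no count in the 8 non-stressed libraries. Among 26156 genes with no overlapped exonic base, 3140 (12.0%) had no count in the stressed libraries and 2165 (8.28%) had none in the non-stressed libraries. Among 7785 genes overlapped in part the numbers were 445 (5.72%) in the stressed and 214 (2.75%) in the non-stressed libraries. The pattern of Pdcd2, reads in stressed libraries and none in non-stressed ones, was thus shared by 183 of the 185 counted genes laid out as it is. Of these 185 genes, 76 had no more than 3 counts over the 8 stressed libraries, so for them a 0 in the other condition says little. Pdcd2 was second in stressed level among the 21, at 7.83 CPM over the 8 stressed libraries, in a range of 0.697 to 15.1 CPM.

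**Figure D5:**
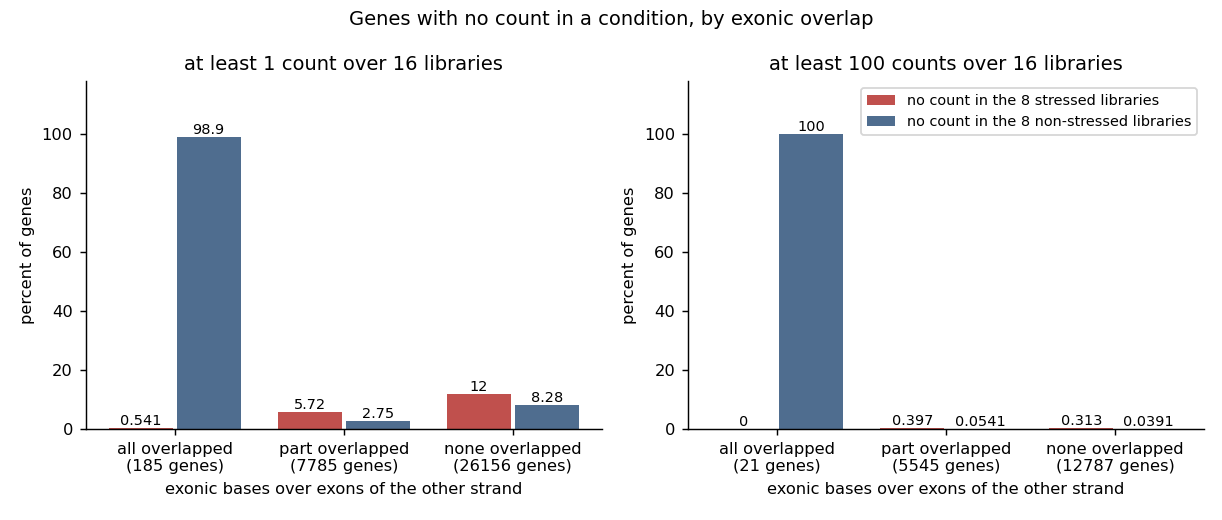
Percent of genes (vertical axis, starting at 0) with no count in the 8 stressed libraries and with no count in the 8 non-stressed libraries, by how much of their exonic length lies over exons of the other strand, with a minimum of 1 count (left) or 100 counts (right) over the 16 libraries. Fully overlapped genes, of which Pdcd2 is 1, had no count in the non-stressed libraries in 98.9% and 100% of cases.

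Il4 and Hipk4 each sit just past the 3' end of a more abundant gene that runs towards them. Convergent pairs with a gap of up to 5 kb and a partner at least 10-fold higher numbered 379, a description also chosen after seeing values. In these the lower gene had a median change of -0.32 in males and -0.29 in females on the group mean of log2(CPM + 0.1). The higher gene had medians of 0.00 in males and 0.09 in females. The lower gene changed by less than -2 in 49 pairs in males and 46 in females, and by more than 2 in 17 and 19. Within 1500 bases the lower gene was below -2 in 28 of 167 pairs in males and 27 in females, and above 2 in 7 and 8. These include the pairs of Il4 and Hipk4, which were chosen for such a change. With a gap over 1500 bases the lower gene was below -2 in 21 of 212 pairs in males and 19 in females. It was above 2 in 10 and 11 of these. The share of all tested genes with such a change was not taken, so no excess can be read from these counts.

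A strand difference is also seen in mitochondrial RNA, where mt-Nd6 is the protein gene read from the light strand and mt-Nd5 its neighbour read from the heavy strand. The level of mt-Nd6 was 1.7 ± 0.246% of mt-Nd5 in stressed males and 29.8 ± 5.68% in non-stressed males, and 1.47 ± 0.209% in stressed females and 53.9 ± 43.0% in non-stressed females (SD, n = 4 each). The highest non-stressed female library had 115%. Among non-stressed mice mt-Nd6 itself was alike in the sexes, at 1684 ± 264 CPM in males and 1708 ± 521 CPM in females. The level of mt-Nd5 was 5691 ± 373 CPM in males and 4112 ± 1723 CPM in females (SD, n = 4 each). The higher female ratio thus goes with less mt-Nd5. Unlike library preparation or counting between the conditions cannot be told apart from the stress differences of Il4, Pdcd2 and Hipk4.

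The genes most like each member were taken by the root mean square difference of centred log2(CPM + 0.1) over the 16 libraries. Il4 and Hipk4 were among each other's 3 closest genes, with a distance of 0.33. Closest to Il4 was 3300002P13Rik at 0.30, with 0.427 ± 0.137 CPM in stressed and 109 ± 9.07 CPM in non-stressed males, and 0.464 ± 0.165 CPM in stressed and 109 ± 9.10 CPM in non-stressed females (SD, n = 4 each). The third gene was 4933416I08Rik for Il4, at 0.34, and Gm28370 for Hipk4, at 0.49. Closest to Pdcd2 were Gm8203 at 0.13, Gm12481 at 0.25 and the mitochondrial transfer RNA mt-Tw at 0.27. All 3 had 0 counts in all 8 non-stressed libraries, as Pdcd2 did. Gm8203 was at 6.88 ± 0.416 CPM in the stressed males and at 7.02 ± 0.488 CPM in the stressed females (SD, n = 4 each). Each gene named here for Il4, Hipk4 and Pdcd2 has another gene within 5 kb on the opposite strand, as have 66.3% of all tested genes.

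Kif3a was most like Reep1 (0.05), Twsg1 (0.05) and Smc1a (0.05). Prkacb (0.05), Fbxo28 (0.05) and Sc5d (0.05) were closest to Tbp, and Pex19 (0.04), Xpnpep1 (0.04) and Ptpra (0.05) to Pld3.

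The genes around the pairs were taken by place, as the closest 2 tested genes on either side, 12 in all. Their distance from a pair ran from 14 bases for 2310022A10Rik to 176587 bases for Chd1. In males 3 of them passed the stress comparison, where 39.7% of all tested genes passed, and in females 6 passed, where 49.3% did (edgeR, adjusted p under 0.05). The share was below that of all genes in males and close to it in females. Without non-stressed female library 4, 5 of the 12 passed in males. Psmb1, a proteasome subunit gene 136 bases from Tbp, fell in both sexes, by 0.49 on the log2 scale in males (adjusted p = 0.0171, edgeR) and by 0.62 in females (adjusted p = 0.00318, edgeR). Its level was 93.8 ± 5.52 CPM in stressed and 133 ± 8.16 CPM in non-stressed males. Chd1, a chromatin remodeller gene, rose by 0.48 ± 0.10 in males (adjusted p = 0.00146, edgeR) and by 0.37 ± 0.10 in females (adjusted p = 0.00644, edgeR). Without non-stressed female libraries 1 and 4 the female value of Chd1 was 0.22 and no longer passed (adjusted p = 0.0736, edgeR), and that of Psmb1 was -0.19, against -0.39 without library 4 alone. Gm49668 lies on the minus strand 64922 bases from Tbp, beyond Psmb1. It fell to 0.0491 ± 0.0569 CPM in stressed males, against 5.64 ± 1.24 CPM in the non-stressed males (log2 difference -6.56 ± 0.57, adjusted p = 2.4e-07, edgeR). In females it was at 0.0367 ± 0.0424 CPM in stressed and 4.26 ± 2.04 CPM in non-stressed mice (log2 difference -6.46 ± 0.60, adjusted p = 5.1e-07, edgeR). With a pseudocount of 1 on the FPKM scale it was at -1.83 in males and -1.50 in females.

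In females Rad50, a DNA repair gene of the type 2 cytokine locus, rose by 0.48 ± 0.11 (adjusted p = 0.00268, edgeR), with a value of 0.22 ± 0.11 in males (adjusted p = 0.127, edgeR, and 0.0183 without non-stressed female library 4). Also passing in females were A430108G06Rik at -0.66 ± 0.23 (adjusted p = 0.0242, edgeR) and Sertad1 at -0.54 ± 0.21 (adjusted p = 0.0421, edgeR). Both calls were lost without non-stressed female library 4, where the log2 differences were -0.57 for A430108G06Rik and -0.25 for Sertad1, and in 3 and 8 further fits that left out another library. With no filter on low values both also missed the threshold, with adjusted p-values of 0.0682 for A430108G06Rik and 0.0582 for Sertad1 (edgeR). Il5, the other cytokine gene tested in the locus of Il4, was at 0.392 ± 0.413 CPM in stressed and 0.546 ± 0.320 CPM in non-stressed males, and at 0.247 ± 0.194 CPM in stressed and 0.722 ± 0.302 CPM in non-stressed females (SD, n = 4 each). It passed in neither sex, with adjusted p-values of 0.543 in males and 0.102 in females (edgeR), the second being 0.0487 without stressed male library 3. Septin8, Prdm9, Sertad3, 2310022A10Rik and Akt2 did not pass either.

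Of the IL-4 pathway, 12 of 20 listed genes were abundant enough to be tested. In males 2 rose and none fell, and in females 4 rose and none fell. Of all tested genes 18.5% rose and 21.2% fell in males, and 22.1% rose and 27.3% fell in females. The median log2 difference of the 12 was 0.11 in males and 0.10 in females, against -0.03 over all tested genes in each sex. The receptor chain Il4ra and the factor Stat6 passed in neither sex. Irs1, an adaptor of the insulin and IL-4 receptors, rose to 23.1 ± 1.22 CPM in stressed males, against 4.21 ± 0.713 CPM in the non-stressed males (log2 difference 2.46 ± 0.27, adjusted p = 3.55e-06, edgeR). In females it was at 22.2 ± 1.25 CPM in stressed and 3.55 ± 2.16 CPM in non-stressed mice (2.63 ± 0.27, adjusted p = 2.1e-06, edgeR). Its relative Irs2 rose by 0.36 ± 0.08 in males and 0.28 ± 0.08 in females, and the kinases Jak1 and Tyk2 rose in females by 0.27 ± 0.08 for Jak1 and 0.41 ± 0.16 for Tyk2. In males 4 of the 12 passed without non-stressed female library 3 or 4, Jak1 among them at 0.22 without library 3 and 0.19 without library 4. Without non-stressed female libraries 1 and 4 the female calls of Irs2 (0.19, adjusted p = 0.104, edgeR) and Jak1 (0.15, adjusted p = 0.0848, edgeR) were lost, and Jak1 was also lost in the fit of female groups alone (adjusted p = 0.0549, edgeR). Il13, the gene of a cytokine related to interleukin 4, was below the filter, with 21 counts in stressed and 3 in non-stressed males and 15 in stressed and 0 in non-stressed females, summed over 4 libraries each. Its 0 to 12 counts per stressed library overlapped the non-stressed range of 0 to 1. The other genes below the filter were Il2rg, Il13ra2, Socs1, Gata3, Arg1, Chil3 and Retnla.

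Cells known to make interleukin 4 were sparse by their markers. Of 9 T cell markers 2 passed the filter, and their summed level was 3.19 to 4.58 CPM in stressed males, 2.90 to 4.72 CPM in non-stressed males, 2.35 to 3.99 CPM in stressed females and 3.93 to 4.65 CPM in non-stressed females. Of 11 markers of mast cells, basophils and eosinophils 0 passed, and they summed to 1.24 to 2.44 CPM in stressed males, 0.788 to 1.98 CPM in non-stressed males, 0.882 to 1.75 CPM in stressed females and 1.24 to 1.93 CPM in non-stressed females. Fcer1a, the chain that defines the high-affinity receptor for immunoglobulin E, had 0 counts in both groups of males and in stressed females, and 1 count in non-stressed females. Siglecf had the most of the 11, with 58 counts in stressed and 23 in non-stressed males and 57 in each group of females. By their means 6 of the 11 were higher and 4 lower in stressed males, and 4 higher and 6 lower in stressed females. Of the T cell markers 4 were higher and 5 lower in stressed males, and 3 higher and 6 lower in stressed females. The summed ranges, most of them from markers near the floor, overlapped between conditions in both sexes, and the part of these cells in the difference of Il4 was not tested.

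Kinesin-2 and intraflagellar transport genes, the partners of Kif3a, were all tested. Of 20 genes, 4 rose and 2 fell in males, and 8 rose and 5 fell in females, against 18.5% higher and 21.2% lower in males and 22.1% higher and 27.3% lower in females over all genes. The median log2 differences were 0.06 in males and 0.07 in females. The second motor subunit, Kif3b, rose by 0.36 ± 0.06 in males (adjusted p = 0.000244, edgeR) and by 0.34 ± 0.06 in females (adjusted p = 0.000363, edgeR). Kif3c, a neuronal kinesin-2 motor gene, was at 241 ± 6.30 CPM in stressed and 125 ± 10.7 CPM in non-stressed males, and at 238 ± 4.28 CPM in stressed and 103 ± 40.9 CPM in non-stressed females. Its log2 differences were 0.96 ± 0.19 in males (adjusted p = 0.000904, edgeR) and 1.20 ± 0.19 in females (adjusted p = 0.000125, edgeR). The transport particle genes Ift22 and Ift20 fell in both sexes, by 0.45 in males and 0.45 in females for Ift22 and by 0.36 in males and 0.37 in females for Ift20. Ift20 lost its call in females without non-stressed female libraries 1 and 4 (-0.14, adjusted p = 0.156, edgeR), where Ift22 was at -0.30. In males 10 of the 20 passed without non-stressed female library 3 and 12 without library 4, and in females 8 passed without library 1. Without non-stressed female libraries 1 and 4, 12 passed in males and 5 in females. Markers of ciliated choroid plexus and ependyma, cells in which this transport builds many cilia, summed to 1503 to 5652 CPM in stressed and 2599 to 7945 CPM in non-stressed males. In females they summed to 1576 to 4593 CPM in stressed and 2143 to 6511 CPM in non-stressed mice. All 9 of these markers were tested, and the ranges overlapped, but Ttr makes up most of the sum. Its mean was 3733 CPM in stressed and 4440.0 CPM in non-stressed males, and 3040.1 CPM in stressed and 4276 CPM in non-stressed females. By their means 4 markers were higher and 5 lower in stressed mice of each sex. Kl was at 165 CPM in stressed and 94.1 CPM in non-stressed males, and Ccdc153 at 7.76 CPM in stressed and 15.9 CPM in non-stressed males. The part of these cells in the transport genes was not tested.

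Of 27 genes of TFIID and other TBP complexes, the partners of Tbp, 6 rose and 8 fell in males, where 39.7% of all genes passed, and 7 rose and 10 fell in females, where 49.3% passed. These had median log2 differences of -0.08 in males and -0.13 in females. Taf1, the largest TFIID subunit, rose by 0.77 ± 0.08 in males (adjusted p = 2.2e-06, edgeR) and 0.62 ± 0.08 in females (adjusted p = 2.0e-05, edgeR). Taf2, another TFIID subunit, rose by 0.45 ± 0.06 in males and 0.31 ± 0.06 in females. Btaf1, an ATPase that removes TBP from DNA, rose by 0.53 ± 0.10 in both sexes. Drap1, a subunit of the repressor NC2 that binds TBP, fell to 96.0 ± 5.91 CPM in stressed males, against 176 ± 2.14 CPM in the non-stressed males, with log2 differences of -0.86 ± 0.16 in males and -1.11 ± 0.16 in females. In females 10 of the 27 passed and Drap1 was at -0.68 without non-stressed female libraries 1 and 4.

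Among relatives of Pdcd2 and genes of small-subunit ribosome assembly, 1 rose and 5 fell of 13 in males, and 1 rose and 7 fell in females. Over all genes 18.5% rose and 21.2% fell in males, and 22.1% rose and 27.3% fell in females. Their median log2 difference was -0.19 in males and -0.25 in females. Rps2, the ribosomal protein gene whose product the Pdcd2 protein escorts, fell to 155 ± 8.83 CPM in stressed males, against 352 ± 27.7 CPM in the non-stressed males (log2 difference -1.17 ± 0.13, adjusted p = 3.1e-06, edgeR). In females it fell to 153 ± 8.32 CPM in stressed mice, against 421 ± 93.9 CPM in non-stressed mice (-1.47 ± 0.13, adjusted p = 2.5e-07, edgeR). Reads of Rps2 may be shared with near-identical copies, so its value is uncertain. The paralog Pdcd2l fell by 0.47 in males and by 0.52 in females, and Pno1, an assembly factor of the small subunit, fell by 0.64 in males and by 0.58 in females (by 0.31 without non-stressed female libraries 1 and 4). Tsr1, an assembly factor, fell by 0.44 in males and by 0.25 in females, and its female call was lost without non-stressed female library 3, at -0.16, and in the fit of female groups alone (adjusted p = 0.051, edgeR) and with no filter (adjusted p = 0.124, edgeR). Rrp12, which helps to export ribosomal subunits, rose by 0.39 ± 0.07 in males and 0.33 ± 0.07 in females.

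The other kinases of the HIPK family were higher where Hipk4 was lower. Hipk1, Hipk2 and Hipk3, nuclear kinases that act on transcription factors, rose in both sexes, 3 of 3 in each, where 18.5% of all genes rose in males and 22.1% in females. Hipk2 was at 65.0 ± 4.52 CPM in stressed and 8.12 ± 3.45 CPM in non-stressed males (log2 difference 2.99 ± 0.38, adjusted p = 1.7e-05, edgeR). In females it was at 61.1 ± 6.24 CPM in stressed and 10.3 ± 7.80 CPM in non-stressed mice (2.55 ± 0.37, adjusted p = 5.7e-05, edgeR). Hipk1 rose by 0.68 ± 0.06 in males and 0.47 ± 0.06 in females, and Hipk3 by 0.52 ± 0.06 in males and 0.44 ± 0.06 in females.

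Of 5 relatives of Pld3, Pld1, a membrane phospholipase gene, rose by 0.39 ± 0.12 in males (adjusted p = 0.0206, edgeR) and 0.43 ± 0.12 in females (adjusted p = 0.00925, edgeR). Its call in males was lost without stressed male library 2, at 0.35, and without non-stressed male library 1, at 0.34. Pld6, a mitochondrial member, fell by 0.72 in females (adjusted p = 0.0298, edgeR), with -0.17 ± 0.27 in males. In females 1 of the 5 passed without any 1 of stressed female libraries 1, 3 and 4 and non-stressed female library 4. Pld4, the relative closest to Pld3 in function, passed in neither sex, at -0.27 ± 0.12 in males (-0.36, adjusted p = 0.0452, edgeR, without stressed male library 2) and -0.14 ± 0.12 in females, and neither did Pld2 and Pld5. Rescaled to TPM, the median log2 difference over all tested genes was 0.19 in males and 0.22 in females in place of -0.03, so small differences of these lists and neighbours are relative to the scaling. With limma on TPM the calls of Psmb1 (-0.26, adjusted p = 0.0864), Ift20 (-0.13) and Tsr1 (-0.21) in males and of A430108G06Rik (-0.37), Sertad1 (-0.25), Ift20 (-0.11) and Tsr1 (0.011) in females were lost. Ift22 was at -0.22 in males and -0.19 in females there, and Kif3b at 0.59 in each sex. With limma on FPKM the male call of Pld1 was lost, at 0.16 to 0.33.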

How the data were processed

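The data are whole-number read counts per gene that the authors deposited for 16 mouse hippocampus libraries. Per the labels' protocols, RNA was harvested with 1-bromo-3-chloropropane and 1 ug went into each VAHTS Universal V8 library. HISAT2 2.0.1, HTSeq 0.6.1 and the genome GRCm39 are listed in the submitters' processing notes, while the strand setting and annotation release are not given in the sources used here. The authors' deposited FPKM equal the counts divided by exonic length and by library total within 0.00500. The members and gene lists were chosen with earlier results of these data known.

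The gene test was edgeR 4.0.16 (R 4.3.3; quasi-likelihood fit of 4 group means, TMM factors) on the 17569 genes that reached an FPKM of 0.5 in 4 or more libraries. A call needs an adjusted p (Benjamini-Hochberg, all 17569 genes) below 0.05. All 6 members passed the filter, Il4 and Hipk4 through the non-stressed and Pdcd2 through the stressed libraries alone. CPM use library totals. Against a group with no count, a fold is a bound at 3 counts over the group; intervals and floors cover counting error only. Named were the members, the nearest 2 tested genes on each side of a pair, up to 4 genes per list by smallest p in males and others in counts of 5 or fewer, and the 3 genes most like each member; Il13, Il4ra, Stat6 and other names beyond this were chosen after their values were seen. Exonic overlap came from GENCODE M21 (98.8% of tested genes matched, 96.6% with the same exonic length) with bedtools 2.31.1, and promoters from RefSeq, matched by symbol for 5 of the 6 members. The replicate numbers of the titles did not pair libraries across groups. On simulated counts of 17569 genes, with 100 genes changed by each fold, edgeR found 85 of the 2-fold and 55 of the 1.5-fold changes between male conditions and made 9 false calls. Between female conditions these were 85, 52 and 9, between the sexes 86, 47 and 10 in non-stressed and 88, 64 and 4 in stressed mice, and for the interaction 58, 16 and 3. The changed genes were drawn from the better-counted ones and were far fewer than the 6976 and 8668 called for stress in males and females. Shifts of whole libraries were not simulated, so these numbers hold for that setting only. Alternatives were DESeq2 1.42.0, limma 3.58.1 on log2 FPKM or TPM, other scalings and filters, fits to the compared groups, a replicate block, and libraries left out.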

Additional observations from a re-analysis of the deposited data

How the results depend on the processing

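Scaling moved the members with small stress differences. On log2(TPM + 0.5), limma gave 0.34 in males and 0.39 in females for Kif3a, 0.29 in males and 0.31 in females for Tbp, 0.16 in males and 0.25 in females for Pld3, and -6.19 in males and -6.14 in females for Hipk4. Tsr1 in females turned to 0.011 and Pld4 in females to 0.11. The same setting called 6102 genes higher and 1998 lower in males and 7158 and 2545 in females, against 3254 higher and 3722 lower in males and 3879 and 4789 in females with edgeR. On log2(FPKM), Hipk4 was at -4.88 in males and -4.78 in females with a pseudocount of 0.5, at -6.70 and -6.67 with 0.1 and at -4.00 and -3.89 with 1, since a pseudocount pulls a low level up.

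The interaction of Tbp lay so near 0 that it changed sign, at 0.0127 without TMM factors, 0.000572 with median-ratio factors, 0.00505 with no filter, 0.00253 with a stricter filter and 0.00090 in DESeq2. With limma it was 0.0129, 0.0154 and 0.0106 for pseudocounts of 0.5, 0.1 and 1 and 0.0225 on TPM, where that of Hipk4 was 0.101, 0.0279, 0.111 and 0.0553. Over 402 fits of the 14 sex and interaction results of the members, 0 passed and the lowest adjusted p was 0.344. A430108G06Rik in males was at -0.00867 without TMM factors.

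Without non-stressed female libraries 1 and 4, the sex difference in non-stressed mice was -0.026 for Il4, 0.041 for Tbp and 0.10 for Hipk4, and in shares -0.254 percentage points for Il4 and 1.02 for Hipk4. Genes called were then 5594 for stress in females and 16 between non-stressed sexes. List members called were 4 in males and 2 in females for IL-4, 12 and 5 for kinesin-2, and in females 10 for TFIID, 5 for Pdcd2 relatives and 1 for phospholipase D, and 5 neighbours passed in males. Fits of the 2 compared groups alone called 11 genes between stressed sexes, 4 IL-4 genes in males and 2 in females, 11 kinesin-2 genes and 5 neighbours in males and 5 Pdcd2 relatives in females. DESeq2 called 15 genes between non-stressed and 11 between stressed sexes, 4 IL-4 genes and 10 kinesin-2 genes in males. On TPM 6 IL-4 and 12 kinesin-2 genes passed in males, and 1 gene for the interaction, as with limma at a pseudocount of 0.1. The phospholipase D list had 0 calls in males with limma on FPKM, and 0 in both sexes with a stricter filter. The cause of these shifts was not tested.

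Leaving out 1 library at a time gave ranges across 0 for the sex difference in non-stressed mice of Il4 (-0.018 to 0.074) and Tbp (-0.070 to 0.00094), in stressed mice of Tbp (-0.046 to 0.015) and Pld3 (-0.037 to 0.0031), and for the interaction of Kif3a (-0.016 to 0.054), Tbp (-0.027 to 0.054) and Hipk4 (-0.41 to 0.044). The shares in non-stressed mice ranged from -0.302 to 0.378 percentage points for Il4 and from -0.689 to 0.364 for Hipk4, and A430108G06Rik in males from -0.12 to 0.16. List calls ranged in males from 2 to 4 for IL-4, 5 to 12 for kinesin-2, 0 to 1 for phospholipase D and 3 to 5 for neighbours, and in females from 8 to 14 for kinesin-2 and 1 to 3 for phospholipase D.

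The replicate numbers do not pair libraries: same-numbered deviations correlated at -0.23 to 0.17 and were best with their own number in 7 of 24 cases. With the replicate block, calls were 6929 for stress in males, 8592 in females, 9 and 7 between the sexes in non-stressed and stressed mice and 0 for the interaction. A430108G06Rik in males was at -0.0018 with the block. No sex or interaction result of a member passed with the block, and among neighbours and list genes given with values Sertad1 in females lost its call (-0.52, adjusted p = 0.0666, edgeR). Runs with the overlap minimum of 1 count, and lists and neighbours under every alternative, were chosen after seeing the data.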
